A study of Mus musculus with 6 samples.

Results

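Simple tandem repeats are stretches of genome in which a short unit of bases is copied head to tail. They were followed here in RNA from 6 whole mouse embryos at E10.5 as the repeat names written as a bracketed unit followed by n, such as (TTAGGG)n. This rule found 315 of the 1217 repeat names in the deposited count tables, and used no measured value. Control embryos (3) were H3f3a fl/+; H3f3b fl/+; Sox2-Cre Tg/0; Trp53-/-, and knockout embryos (3) were H3f3a fl/-; H3f3b fl/-; Sox2-Cre Tg/0; Trp53-/-. H3f3a and H3f3b encode histone H3.3, Sox2-Cre is a recombinase transgene active in the epiblast, and both groups lacked Trp53, the p53 gene. The embryos were of mixed C57BL/6, CD1 and 129 descent. The floxed alleles of the controls were also open to deletion, so the comparison is not with embryos of intact H3.3 genes. Littermates and pooling are not named in the labels, so a p-value here speaks only of the spread among these 6 samples. Each library is called an embryo here, though the labels do not say that it holds a single one.

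As background, H3.3 is placed into chromatin both in and outside S phase. The chaperone pair of ATRX and DAXX places it at telomeres, pericentric heterochromatin and other tandem repeats, while the HIRA complex places it at active genes. Mammalian telomeres end in a G-rich tandem hexamer, and RNA transcribed through telomeres carries the same G-rich unit. Most other simple repeats, the microsatellites, lie in introns and between genes. Triplets are the usual exception, because a triplet array can sit inside a reading frame and code for a run of 1 amino acid.

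Units that the results on abundance and strand turn on are shown as tandem copies, written out from the letters in the repeat name and not read from a genomic copy, with the first copy in capitals. The A row is shown because it set some knockout embryos apart. The TG and CTG units, with their complements, are the most abundant units of 2 and 3 bases. The GGA unit and its complement differed unequally between the groups.
Adenine row, (A)n: Aaaaaaaaaaaaaaaaaaaaaaaa
Thymine row, (T)n: Tttttttttttttttttttttttt
Most abundant dinucleotide, (TG)n: TGtgtgtgtgtgtgtgtgtgtgtg
Its complement, (CA)n: CAcacacacacacacacacacaca
Most abundant triplet, (CTG)n: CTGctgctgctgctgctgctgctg
Its complement, (CAG)n: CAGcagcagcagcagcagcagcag
Purine triplet, (GGA)n: GGAggaggaggaggaggaggagga
Pyrimidine triplet, (TCC)n: TCCtcctcctcctcctcctcctcc

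The repeat tables name both strands of most units. The 315 rows stand for 162 different tandem sequences, of which 153 have a row for the unit and a row for its reverse complement. The other 9 have 1 row, such as (TA)n, which is its own complement. No unit was longer than 6 bases: 4 rows had a unit of 1 base, 6 of 2, 20 of 3, 59 of 4, 194 of 5 and 32 of 6, the last including the telomere pair. Of all rows, 28 had no count in any library, and 177 passed the filter on low counts and were tested. The other 138 together held 1938 counts, 0.173% of all counts in simple repeats. The tested row with the fewest counts had 49 over the 6 libraries, and the untested row with the most had 76.

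The libraries held 24952853 to 30461689 counts in genes, and levels below are counts per 1000000 of these gene counts (CPM), which leaves any overall move of repeats against genes in view. Simple repeats had 163679 to 223863 counts per library. H3f3a, the targeted gene checked first, had 9851, 10775 and 9685 counts in controls and 1818, 1744 and 1996 in knockouts. H3f3b had 19717, 21379 and 18942 counts against 12164, 13626 and 11431. Alignments outside annotated genes made up 9.79%, 10.7% and 13.1% of the control libraries and 18.3%, 10.6% and 18.0% of knockouts 1, 2 and 3. Knockouts 1 and 3 therefore stood apart from the other 4 libraries in RNA from outside genes, and knockout 2 lay within the control range. All 18 markers of embryonic tissues had counts enough to be tested, while 2 of 10 markers of placenta and decidua did. On the TMM-scaled level of the gene counts, the placenta and decidua list summed to 10.4 to 14.8 CPM in controls and 12.1 to 16.9 CPM in knockouts. Most of this sum came from Hand1, which the embryonic heart also makes.

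Simple repeats as a whole were higher in knockouts 1 and 3 only. Their summed level was 5678, 6009 and 6776 CPM in controls and 7584, 5891 and 8032 CPM in knockouts, a mean of 6154 ± 564 against 7169 ± 1129 CPM (SD, n = 3 each). Knockout 2 fell among the controls, and the groups overlapped. The 10 most abundant rows held 56.1% of the counts. In a bulk sample, fewer cells that carry an RNA and less of it per cell cannot be told apart.

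No simple repeat was called in knockouts against controls. Of the 177 tested rows, none had an adjusted p under 0.05 by edgeR, and neither DESeq2 nor limma-voom called any. Among all 853 tested repeat names edgeR and limma-voom called 0% and DESeq2 0.234%. At an unadjusted p under 0.05 there were 24 simple repeats by edgeR, 38 by DESeq2 and 17 by limma-voom. All 24 of edgeR, out of 177 tested, were higher in knockouts. Beside them stood 99 of all 853 repeat names, 11.6%, and 75 of the 676 other tested names, a similar share. The direction was nearly uniform, with 167 of 177 log2 fold changes above 0, beside 94.1% of all repeat names. The median log2 fold change was 0.45 for simple repeats and 0.56 for the 676 other tested names. Under TMM scaling of the repeat counts themselves, 79 of 175 simple repeats were above 0. Scaled by repeat count totals, in which ribosomal RNA rows take 35.9% to 76.4%, 175 of 177 were above 0, so the direction against other repeats depends on the scaling.

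**Figure D1:**
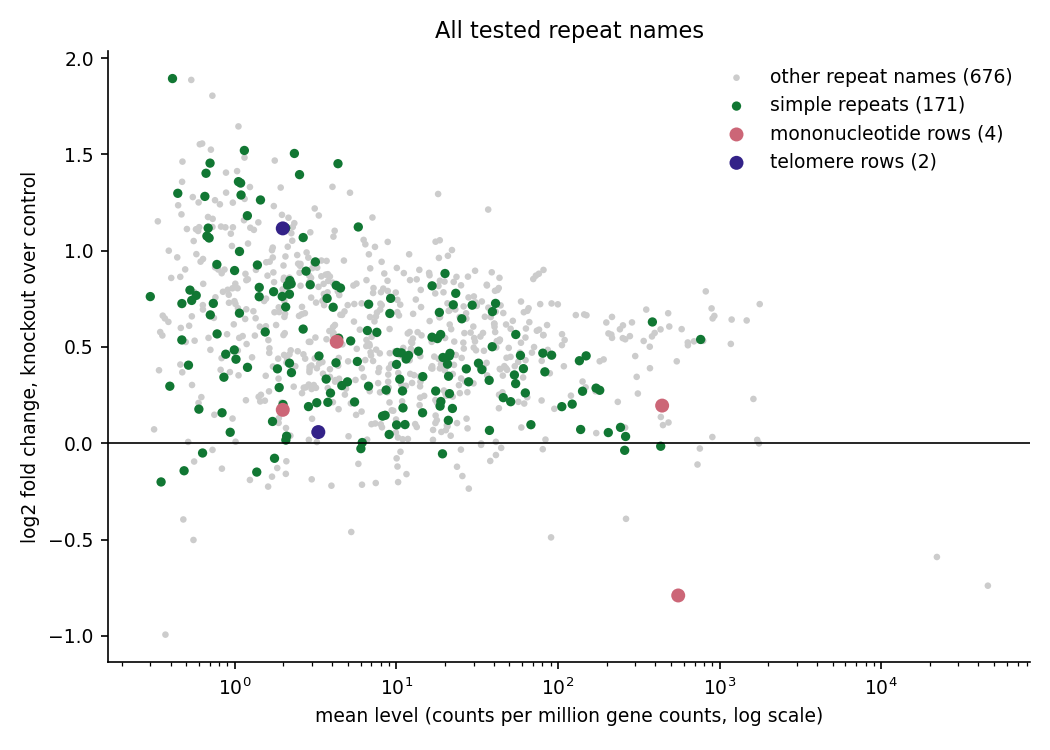
Log2 fold change of knockout over control (vertical axis) against mean level in CPM (horizontal log axis) for every tested repeat name, with simple repeats, mononucleotide rows and telomere rows in colour and the other 676 names in grey. The 171 other simple repeats lie among the grey names and mostly above 0, while the adenine row lies at -0.79, the lowest of the simple repeats.

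Knockout 2 decided whether rows were called. With that embryo left out, edgeR called 99 of 191 tested simple repeats at an adjusted p under 0.05, all of them higher, which is 51.8%. In the same fit it called 63.9% of all 895 tested repeat names as higher. Leaving out any of the other 5 libraries gave 0 called simple repeats. The remaining knockouts 1 and 3 are the libraries with 18.3% and 18.0% of alignments outside genes. With that share as a covariate and all 6 libraries in the fit, the median log2 fold change of simple repeats was 0.05, and 4 of 177 were called, beside 1.88% of all repeat names. Of the knockouts only knockout 2 lies within the control range of the share, so the covariate fit rests mostly on knockout 2. Repeat reads outside genes also count toward the share, so the covariate is not independent of the rows.

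Those 4 rows, named after their values were seen, were higher in every knockout. The triplet row (CAT)n had 45.3, 52.2 and 35.1 CPM in controls and 63.6, 68.7 and 63.9 CPM in knockouts, and (CACCAT)n had 16.7, 15.7 and 16.9 against 22.3, 22.1 and 22.7 CPM. The rows (CAACC)n and (CGGA)n were highest in knockout 2. For (CAACC)n the levels were 17.8, 17.8 and 17.7 CPM in controls and 20.2, 30.4 and 20.3 CPM in knockouts. For (CGGA)n they were 8.17, 9.43 and 8.21 CPM in controls and 14.5 CPM in knockout 2, while knockout 1 lay only just above the highest control. Adjusted p-values in the covariate fit of edgeR were 0.0425 for (CAT)n, 0.0430 for (CACCAT)n, 0.00042 for (CAACC)n and 0.00598 for (CGGA)n. Without the covariate they ran from 0.272 to 0.283.

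Summed by unit length, the classes differed in whether they followed knockouts 1 and 3. Single rows did not all follow the sum of their class, as counted further below. Dinucleotide rows summed to 1122, 1206 and 1515 CPM in controls and to 2133, 1287 and 2074 CPM in knockouts. Knockouts 1 and 3 were above every control, and knockout 2 was within the control range. Tetranucleotide rows had the same order, with 660.1, 727 and 906 CPM in controls and 1232, 755 and 1239 CPM in knockouts. Pentanucleotide rows summed to 467.5, 489 and 568 CPM against 697, 533 and 716 CPM. Hexanucleotide rows other than the telomere pair summed to 406, 403 and 482 CPM against 578, 458 and 576 CPM. In each of these 4 classes the difference between knockout 2 and the other knockouts exceeded the difference between any pair of controls.

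Trinucleotide rows differed from this pattern. They summed to 1977, 2055 and 2108 CPM in controls and 2146, 2219 and 2194 CPM in knockouts, a mean of 2047 ± 65.8 against 2186 ± 37.1 CPM (SD, n = 3). All knockouts lay above all controls, by a ratio of means of 1.07, and knockout 2 was the highest. With TMM factors of the gene counts the groups overlapped, at 2066 to 2125 CPM in controls and 2061 to 2287 CPM in knockouts. The median log2 fold change over rows was 0.15 for the 20 tested triplets, 0.50 for 6 dinucleotides, 0.67 for 51 tetranucleotides, 0.47 for 67 pentanucleotides and 0.32 for 27 hexanucleotides. Without knockout 2, edgeR called 6 of 20 triplets, 5 of 6 dinucleotides, 37 of 52 tetranucleotides, 38 of 80 pentanucleotides and 11 of 27 hexanucleotides, all higher, beside 63.9% of all repeat names.

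**Figure D2:**
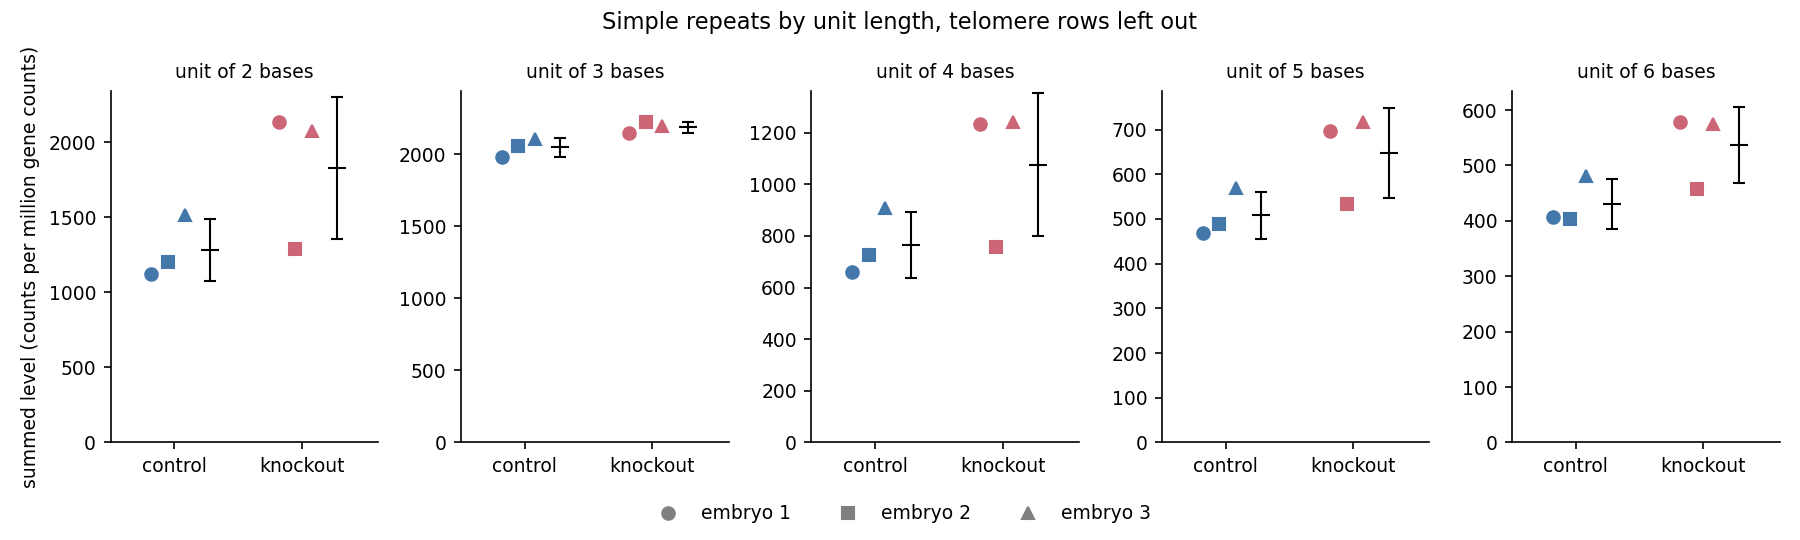
Summed level of simple repeats in CPM (vertical axes, each from 0) in each embryo, by unit length, with mononucleotide and telomere rows left out. Symbols stand for embryos, and bars give the mean and SD of 3. Knockouts 1 and 3 are high for units of 2, 4, 5 and 6 bases and knockout 2 is not, while for units of 3 bases the 3 knockouts lie together between 2146 and 2219 CPM.

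The sum of a class moved with the share of alignments outside genes for units of 2, 4, 5 and 6 bases. Some of this agreement is fixed in advance. Repeat reads outside genes count toward the share, and fewer gene counts raise both the share and the level. Ordered by that share, controls 1 and 2 and knockout 2 lay at 9.79% to 10.7%, control 3 at 13.1% and knockouts 3 and 1 at 18.0% and 18.3%. Dinucleotide sums in those positions were 1122 to 1287, then 1515, then 2074 and 2133 CPM. Control 3 was the highest control in each of these classes and also had the most alignments outside genes among the controls. It was the highest control for triplets too, at 1977, 2055 and 2108 CPM in controls 1, 2 and 3. No coefficient is given, since the 6 libraries fall into clusters.

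**Figure D3:**
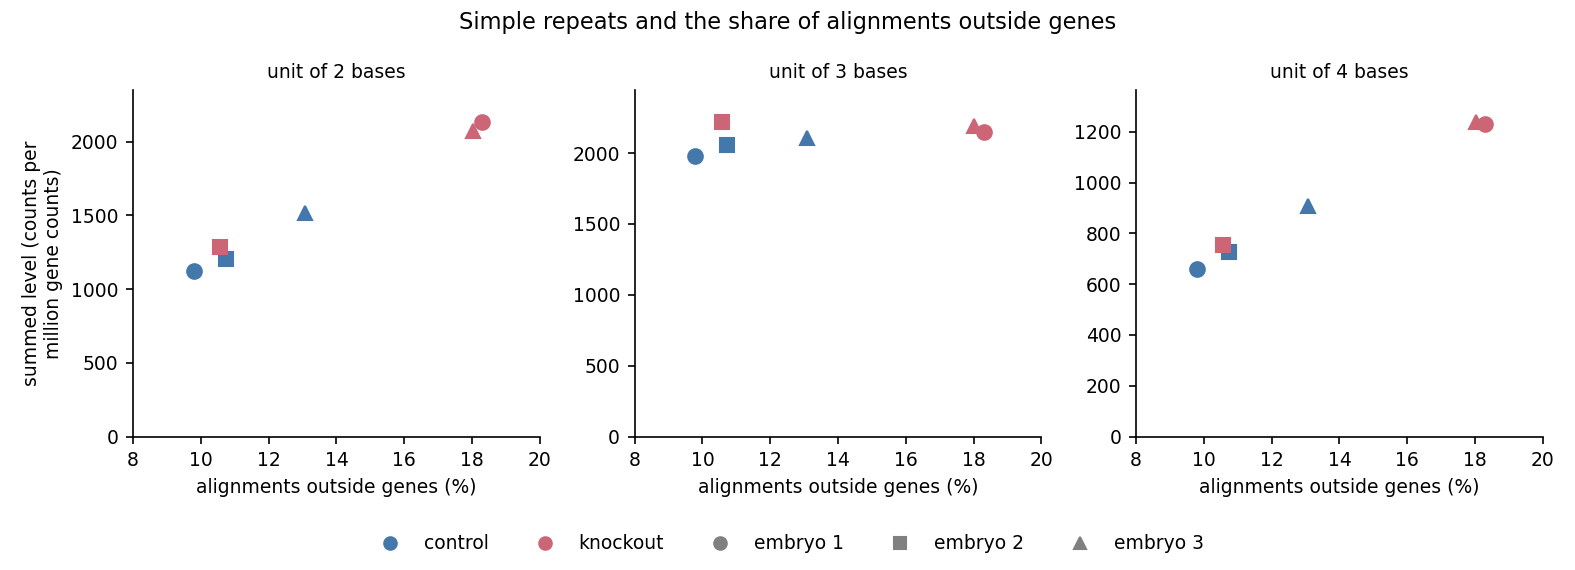
Summed level of simple repeats in CPM (vertical axes) against the percentage of alignments outside genes (horizontal axes), for units of 2, 3 and 4 bases, with 1 point per embryo. Units of 2 and 4 bases are higher where more alignments lie outside genes, with control 3 between the other controls and knockouts 1 and 3, while units of 3 bases stay between 1977 and 2219 CPM.

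Annotated transcripts show where such tracts can sit in mature RNA. The longest transcript of each of 55341 gene names in GENCODE M21, which is on GRCm38 and not the mm9 build of the files, was searched for perfect tracts of at least 20 bases. Of 1660 triplet tracts, 413 lay in coding sequence, which is 24.9%, as did 257 of 1441 hexamer tracts, which is 17.8%. Coding sequence held 24 of 5339 dinucleotide tracts, 13 of 3064 tetranucleotide tracts and 7 of 1380 pentanucleotide tracts. Untranslated regions held 2769 dinucleotide, 1410 tetranucleotide and 720 pentanucleotide tracts, beside 567 triplet and 572 hexamer tracts. The remaining tracts lay in noncoding transcripts, so all these lengths occur in mature RNA. Whether tract position bears on the levels was not tested. The unit shared by (CTG)n and (CAG)n had 372 tracts, 183 of them coding, and that shared by (TG)n and (CA)n had 3638, of which 13 were coding. The telomere unit had 5 tracts in these transcripts.

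Among dinucleotides, (TG)n was the most abundant simple repeat of all. It had 536, 589 and 742 CPM in controls and 1058, 609 and 1046 CPM in knockouts. Its complement (CA)n had 262, 280 and 362 CPM against 562, 317 and 520 CPM. For both, knockouts 1 and 3 exceeded every control and knockout 2 did not. The log2 fold change was 0.54 ± 0.28 (SE) for (TG)n and 0.63 ± 0.28 for (CA)n, at edgeR adjusted p-values of 0.272. Without knockout 2 both were called, at adjusted p-values of 0.00728 and 0.00679, and over all alternatives the adjusted p reached 0.944 and 0.695. The unit (GA)n had 69.6, 71.2 and 90.0 CPM against 125, 81.9 and 110.3 CPM, again with knockout 2 among the controls. The rarest dinucleotide, (CG)n, which is made of CpG steps, had 16, 15 and 16 counts in controls and 34, 16 and 31 in knockouts.

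The most abundant triplet row, (CTG)n, had overlapping groups. It had 419.5, 466 and 418 CPM in controls and 369.9, 507 and 412 CPM in knockouts, with knockout 2 the highest of all embryos and knockout 1 the lowest. Its log2 fold change was -0.02 (SE 0.22; edgeR adjusted p = 0.956). Its complement (CAG)n had 230 to 247 CPM in controls and 236 to 262 CPM in knockouts. (TGG)n had 235 to 276 against 240 to 281 CPM, and (GGA)n 253 to 277 against 246 to 260 CPM. The CpG triplets (CGG)n and (CCG)n had log2 fold changes of 0.06 and 0.19. Against these, (TCC)n had 64.3, 64.6 and 73.9 CPM in controls and 99.1, 80.3 and 101 CPM in knockouts, with every knockout above every control. Its log2 fold change was 0.47 ± 0.22 (SE) at an edgeR adjusted p of 0.272. (CCA)n was likewise apart, at 53.3 to 63.4 against 65.4 to 70.0 CPM.

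Among units of 4 and 5 bases, the 2 most abundant rows of each length held a run of A or T with a G or C. The tetranucleotide (TTTG)n had 109, 122 and 147 CPM in controls and 193, 120 and 204 CPM in knockouts. (CAAA)n, its complement, had 117 to 144 against 126 to 173 CPM, and (TTTTG)n 142 to 172 against 154 to 211 CPM. (CAAAA)n had a log2 fold change of 0.35. The most abundant hexamer was the G- and C-rich (CCCCAG)n, followed by (TTTTTG)n, at a log2 fold change of 0.37. The groups of (CCCCAG)n did not overlap, with 116, 107 and 118 CPM in controls and 132, 134 and 127 CPM in knockouts, a log2 fold change of 0.20 ± 0.20 (SE) and an edgeR adjusted p of 0.447.

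The rows with the smallest p among those above 0 were all rare. (TTTAA)n had 15, 18 and 19 counts in controls and 40, 27 and 55 in knockouts, a log2 fold change of 1.36 ± 0.40 (SE). (TTCCC)n had 10, 22 and 20 counts against 52, 27 and 57, at 1.52 ± 0.47, and (CCCA)n had 56, 55 and 41 against 119, 70 and 97, at 1.07 ± 0.33. (CAGAA)n had 1, 5 and 9 counts against 19, 14 and 19, the largest log2 fold change of the tested simple repeats, at 1.89 ± 0.64. Groups of these 4 rows did not overlap on the CPM scale, yet each had an edgeR adjusted p of 0.272. Without knockout 2 each was called, with adjusted p-values of 0.00679 to 0.0136, while over all alternatives the adjusted p reached 0.684. Of the 10 tested rows below 0, the adenine row had the smallest p. The pentanucleotide (CGTTG)n was next, at -0.15. The other rows taken by the same rule were the hexamer (CCCGAA)n at -0.20 and, last in order, the tetranucleotide (TAAG)n at -0.14. Groups of these overlapped.

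Complete separation of the groups was counted on the CPM scale. All knockouts lay above all controls for 37 of 177 simple repeats, 20.9%, where 10.3% of all tested repeat names did so. None of the simple repeats had all knockouts below all controls, as 0.586% of all names did. By unit length the count was 0 of 6 dinucleotides, 5 of 20 triplets, 4 of 51 tetranucleotides, 21 of 67 pentanucleotides and 7 of 27 hexanucleotides. With TMM factors of the gene counts, 38 simple repeats and 10.7% of all names were apart in this way. These counts were not tested against each other.

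Base content splits the same rows as unit length does, so these sums are not independent of those by unit length. The classes of over 50% and of only G and C hold abundant triplets, such as (CTG)n, (TGG)n and (CGG)n. Leaving out mononucleotide and telomere rows, units of exactly 50% G and C, which include (TG)n and (CA)n, summed to 1167, 1254 and 1589 CPM in controls and 2290, 1359 and 2227 CPM in knockouts, a ratio of means of 1.47. Units with no G or C had 278 to 369 CPM against 309 to 452 CPM, and units of under 50% G and C 1141 to 1430 CPM against 1288 to 1799 CPM. In both, knockout 2 was within the control range. Units of over 50% G and C summed to 1649, 1742 and 1792 CPM against 1852, 1878 and 1912 CPM. Units of only G and C had 398, 344 and 399 CPM against 414, 418 and 408 CPM. For both of these every knockout exceeded every control, by ratios of 1.09 each, but with TMM factors of the gene counts the groups overlapped for both.

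The rows of a complement pair differed unequally for some units. The ratio of counts in a row to counts in its complement does not depend on the scaling of libraries. For (GGA)n over (TCC)n this ratio took values of 3.93, 3.96 and 3.75 in control embryos and 2.62, 3.07 and 2.57 in knockout embryos, a mean of 3.88 ± 0.11 against 2.75 ± 0.28 (SD, n = 3). All knockouts were lower, knockout 2 the least so. The hexamer (CAGAGA)n over (TCTCTG)n had ratios of 3.43, 3.49 and 3.42 against 2.53, 3.12 and 2.51, in the same order of embryos. For (TG)n over (CA)n the ratios were 2.04, 2.10 and 2.05 against 1.88, 1.92 and 2.01, so that every knockout was below every control in the most abundant pair too, by a smaller margin. For (CTG)n over (CAG)n the groups overlapped.

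For 67 complement pairs with both rows tested and unequal purine content, the purine-richer row was set over the pyrimidine-richer row. The ratio was lower in all knockouts for 8 pairs, 11.9%, and higher in all knockouts for 2, 2.99%. These counts were not tested, and complete separation in 1 pair gives a two-sided exact permutation p of 0.1 at the smallest. The 8 include (A)n over (T)n, at 0.55, 0.66 and 1.31 in knockouts 1, 2 and 3. The 2 higher pairs were (GGGGA)n over (TCCCC)n and (CAGAA)n over (TTCTG)n. For the first of these the ratio was 0.074 to 0.082 in controls and 0.102 to 0.136 in knockouts. In the remaining pairs the groups overlapped, among them (GA)n over (TC)n, at a mean of 0.66 in controls and 0.68 in knockouts. Split by purine content after the values were seen, rows of only C and T summed to 300, 303 and 377 CPM in controls and 509, 346 and 506 CPM in knockouts. Rows of only A and G summed to 435, 451 and 504 CPM against 545, 459 and 524 CPM. The low-complexity rows, which are not tandem units, held a similar contrast. CT-rich had 515, 524 and 538 CPM in controls and 784, 651 and 808 CPM in knockouts, with a log2 fold change of 0.51 and an edgeR adjusted p of 0.272. GA-rich had 1603 to 1789 against 1692 to 1765 CPM. Their ratio was 3.23 ± 0.11 in controls and 2.32 ± 0.34 in knockouts (SD, n = 3), with the groups apart. The strand setting of the counting is not given in the sources used here, so the strand of the RNA cannot be read from these rows.

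The adenine row set knockouts 1 and 2 apart from the other embryos. (A)n had 19921, 21711 and 20597 counts in the controls but 6910, 6959 and 19273 in knockouts 1, 2 and 3. On the CPM scale this was 654, 713 and 742 against 277, 250 and 692. Knockouts 1 and 2 were far below the controls, and knockout 3 was within their range. The log2 fold change was -0.79 ± 0.39 (SE), the lowest of the tested simple repeats, with an edgeR adjusted p of 0.272, and without knockout 3 it was -1.41. Its adjusted p was never under 0.135 in any alternative. The other mononucleotide rows did not share this pattern: (T)n had 383, 408 and 443 CPM in controls and 506, 380 and 527 CPM in knockouts, with knockouts 1 and 3 above every control and knockout 2 just below the lowest control. The ratio of (A)n to (T)n was 1.71, 1.75 and 1.68 in controls and 0.55, 0.66 and 1.31 in knockouts, so that knockout 3 was also below the controls by this measure.

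(C)n and (G)n were rare. (C)n had 89, 100 and 119 counts in controls and 146, 99 and 159 in knockouts, a log2 fold change of 0.53 (SE 0.31; edgeR adjusted p = 0.277). It was called without knockout 2, at 0.73 and an adjusted p of 0.0298, while over all alternatives the adjusted p reached 0.953. (G)n had 49, 40 and 74 counts against 53, 47 and 69. With (A)n included, mononucleotide rows summed to a lower mean in knockouts, 884 ± 306 CPM against 1119 ± 75.0 CPM (SD, n = 3), with knockout 3 above every control. With (A)n left out, an alternative added after seeing the data, all simple repeats summed to 5024, 5296 and 6035 CPM in controls and 7307, 5641 and 7341 CPM in knockouts.

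**Figure D4:**
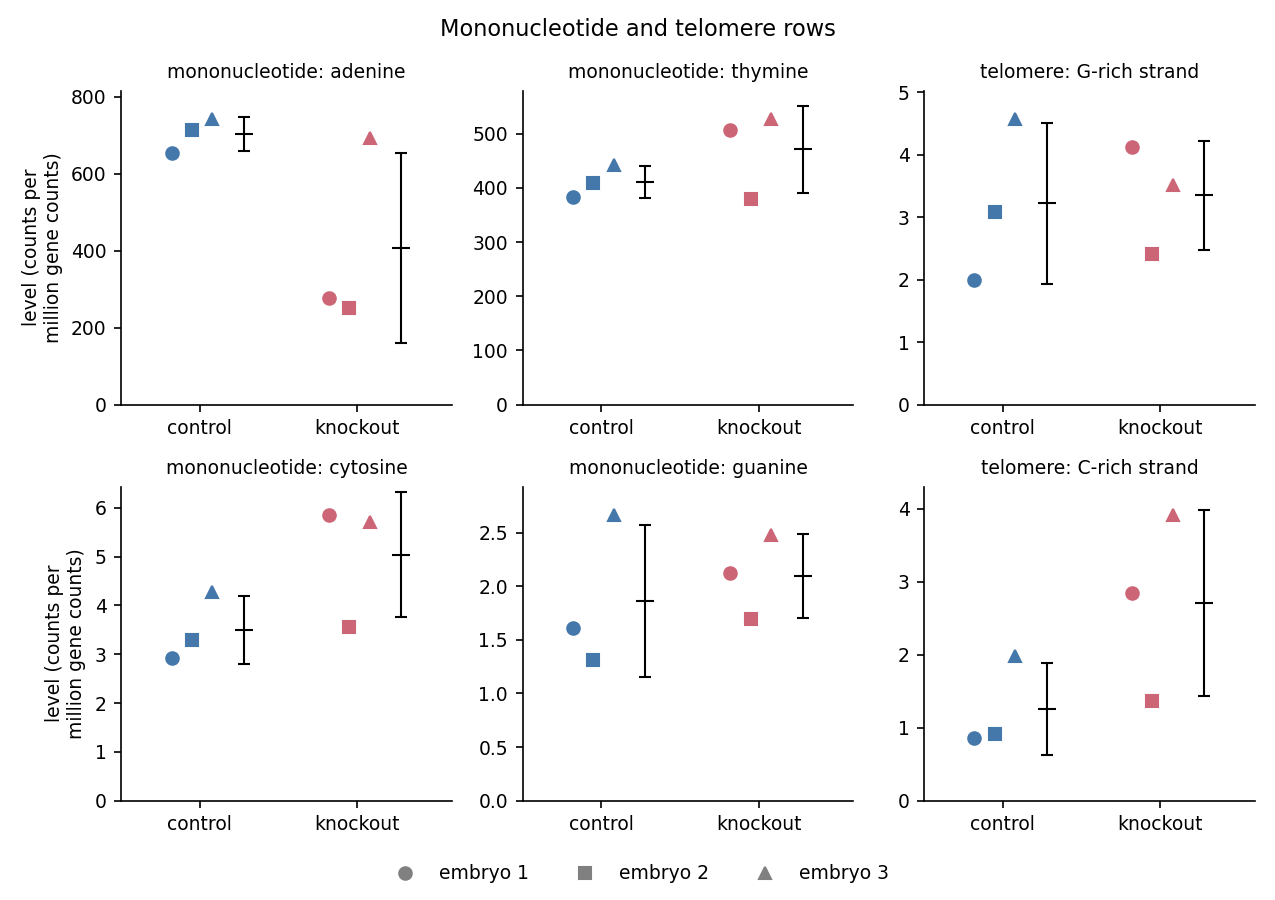
Level in CPM (vertical axes, each from 0) of the 4 mononucleotide rows and the 2 telomere rows in each embryo, with symbols for embryos and bars for the mean and SD of 3. The adenine row is low in knockouts 1 and 2, at 277 and 250 CPM, and the C-rich telomere row is high in knockouts 1 and 3.

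Genes that followed the adenine row were sought after its values were seen. Out of the genes at 5 CPM or more on average, the 4 whose log2 level correlated best with that of (A)n over the 6 libraries were Nfia, Ggact, Igf2bp3 and B630005N14Rik. No coefficient is given, since the libraries fall into 2 clusters. Nfia, a transcription factor gene of the nuclear factor I family, had 6245, 6434 and 6392 counts in controls and 865, 666 and 5455 in knockouts. B630005N14Rik had 17429, 18814 and 16557 counts against 1397, 2236 and 14791, and the RNA-binding protein gene Igf2bp3 had 18533, 20095 and 18621 against 8057, 9271 and 18508. Ggact, an enzyme gene, had 275, 309 and 286 against 86, 78 and 295. In all 4 genes knockouts 1 and 2 were far below the other libraries, a pattern that the choice of the genes fixes and that was not tested. Whether the reads of these genes and of (A)n come from shared loci was not tested, since the files give no positions.

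**Figure D5:**
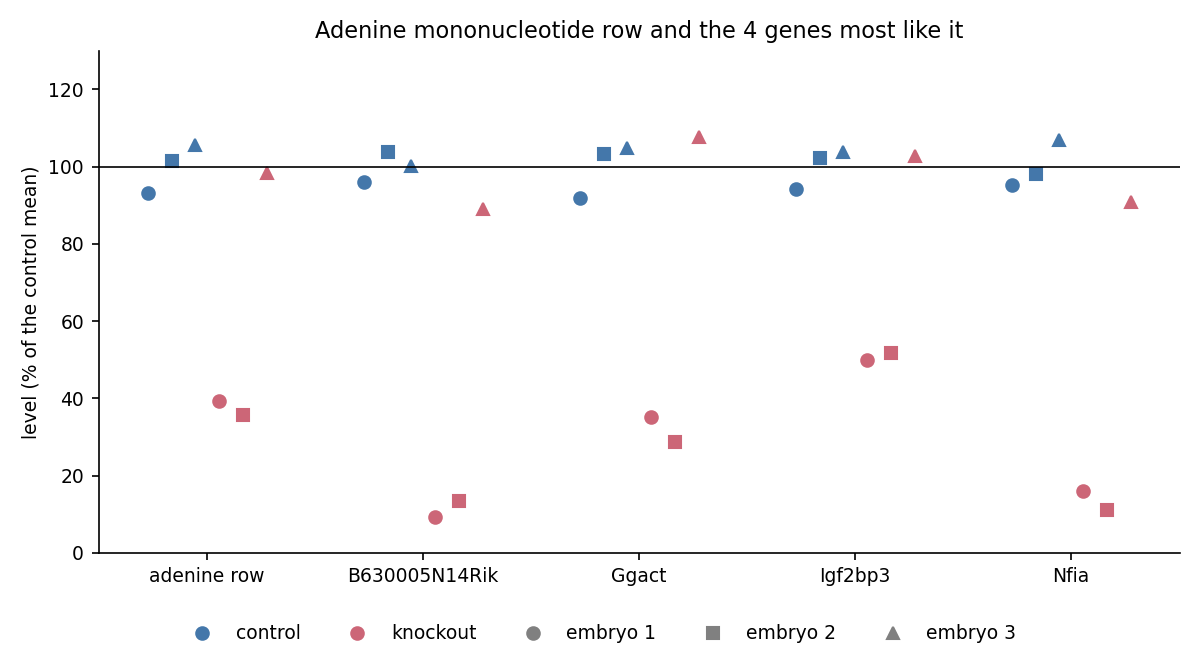
Level of the adenine mononucleotide row and of the 4 genes most like it, as a percentage of the mean of the 3 controls (vertical axis from 0, line at 100), with 1 point per embryo. Knockouts 1 and 2 lie far below the other 4 embryos in each of the 5, and knockout 3 lies nearer the controls, below all 3 of them for Nfia and B630005N14Rik and above all 3 for Ggact.

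The telomere rows were scarce. (TTAGGG)n had 61, 94 and 127 counts in controls and 103, 67 and 98 in knockouts, which is 2.00, 3.09 and 4.57 CPM against 4.13, 2.41 and 3.52 CPM. The groups overlapped fully, with a log2 fold change of 0.06 ± 0.38 (SE) and an edgeR adjusted p of 0.912. Its complement (CCCTAA)n had 26, 28 and 55 counts in controls and 71, 38 and 109 in knockouts, or 0.854, 0.920 and 1.98 CPM against 2.85, 1.37 and 3.91 CPM. Knockouts 1 and 3 exceeded every control, and knockout 2 lay between control 2 and control 3. Its log2 fold change was 1.12 (SE 0.49; edgeR adjusted p = 0.272). It was called without knockout 2, at 1.44 and an adjusted p of 0.0091, but over all alternatives the adjusted p reached 0.883.

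Summed over the unit and its complement, the telomere rows had 87, 122 and 182 counts in controls and 174, 105 and 207 in knockouts. This was 4.47 ± 1.89 CPM against 6.06 ± 1.99 CPM (SD, n = 3), with a two-sided exact permutation p of 0.3, where 0.1 is the smallest that 3 against 3 allows. The sum mostly rose with the share of alignments outside genes, from 2.86 CPM in control 1 to 6.55 CPM in control 3. It was highest in knockout 3, at 7.43 CPM, while the share was highest in knockout 1, where the sum was 6.97 CPM. The ratio of the G-rich to the C-rich row was 2.35, 3.36 and 2.31 in controls and 1.45, 1.76 and 0.90 in knockouts. All knockouts had the lower ratio, and the exact permutation p of 0.1 is the smallest possible. The telomere pair is 1 of the 8 pairs counted above. Reads that align to several places were not counted in any row, so reads from long pure arrays that lack a single best place are not in these counts.

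Most hexamers 1 base away from the telomere unit had overlapping groups. Positions are counted from the first base of ttaggg for the G-rich units and from the first base of ccctaa for the C-rich ones. (TTAGGC)n, which differs by G6C, had 78, 78 and 80 counts in controls and 89, 69 and 86 in knockouts. (CCCCAA)n, with T4C, had 200, 162 and 177 against 150, 155 and 176, and (GCCTAA)n, with C1G, had 27, 24 and 30 against 23, 23 and 31. Their log2 fold changes were 0.19, -0.03 and 0.06. (TTCGGG)n, with A3C, had 12, 12 and 10 against 13, 17 and 15, with every knockout above every control on the CPM scale and a log2 fold change of 0.54. (CCCGAA)n, with T4G, had 12, 9 and 12 against 10, 8 and 8. (TTGGGG)n with A3G, (CTAGGG)n with T1C and (CCCTAG)n with A6G had at most 14 counts in any library and were not tested.

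Among genes that place H3.3 at tandem repeats or protect telomeres, only the targeted pair was called. Of 15075 tested genes edgeR called 1.51%. In a list of 14 genes for H3.3 and its deposition, 2 were lower, H3f3a and H3f3b, and none higher. H3f3a was at a log2 fold change of -2.37 ± 0.07 (SE) and an adjusted p of 1.52e-06, and H3f3b at -0.60 ± 0.10 and 0.0274, a call lost without any single library but knockout 2 (adjusted p up to 0.146). The chaperone genes Atrx and Daxx were at -0.10 and 0.07, with adjusted p-values of 0.545 and 0.649. Ubn2, a subunit gene of the HIRA complex, had 3473, 3422 and 4374 counts in controls and 5058, 3394 and 6138 in knockouts, highest in knockouts 1 and 3. None of 17 genes of telomere protection was called, with 0 at an unadjusted p under 0.05. Pot1a, a shelterin subunit gene that binds the single G-rich strand, was at 0.21 and the heterochromatin genes Setdb1 and Trim28 at 0.15 and -0.17.

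None of the 10 tested genes of telomerase and of the CST complex, which fills in the C-rich strand, was called by edgeR, with 1 at an unadjusted p under 0.05. That was Ctc1, the large CST subunit gene, with 83.0 ± 4.01 CPM in controls and 103 ± 7.61 CPM in knockouts on the TMM-scaled level (SD, n = 3) and an adjusted p of 0.0997. Of 9 mismatch repair genes, whose products correct slippage at microsatellites, none was called and 2 were at an unadjusted p under 0.05, Msh3 at -0.19 and Mlh3 at -0.27. The median log2 fold change was -0.09 for the H3.3 list, 0.04 for telomere protection, 0.01 for telomerase and CST, and -0.11 for mismatch repair. Over all tested genes it was 3.79e-05.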

How the data were processed

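Polyadenylated RNA of whole embryos was made into 6 stranded libraries, per the labels' protocols. The authors deposited whole-number counts per gene symbol and per repeat name for each embryo. Tools named in the submitters' processing notes are HTSeq, Bowtie2, TopHat2 and Trimmomatic, with the mm9 build. Versions, annotations and the strand setting were not given in the sources used here. Summary rows (outside features, ambiguous, not unique) stayed out of tests; alignments that were not unique were 18.2% to 22.6% per library.

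All repeat names were fitted together with edgeR 4.0.16 in R 4.3.3 (quasi-likelihood F test, robust, filterByExpr with a minimum count of 10 and total of 15), with gene count totals as library sizes and group as the only term. Benjamini-Hochberg adjusted p-values under 0.05 were called, over the 853 tested names. Each SE was taken as the size of the log2 fold change divided by the root of F. Genes were fitted likewise with TMM. The biological coefficient of variation was 30.7% for repeats and 12.2% for genes. Chi-square per degree of freedom between libraries was 52.4 to 1530, so the libraries are distinct. Class sums carry no test. DESeq2 1.42.0 and limma 3.58.1 (voom) were alternatives, with other scalings, filters, a replicate block, a covariate and each library left out. The fit was tested on simulated data.

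Named rows are the telomere and mononucleotide rows, the 2 most abundant per unit length, the 4 above 0 and 4 below 0 of smallest p, and the 5 largest complement pairs. Named genes are H3f3a, H3f3b, Atrx, Daxx, Trp53 and up to 3 per list with the smallest p. Other names were chosen after their values were seen. The members and the 6 gene lists were chosen with earlier results of these data known. Trp53, null in both groups, had 64, 87 and 88 counts in controls and 148, 86 and 136 in knockouts. In the list of 18 embryonic tissue genes 1 was higher, Kdr (log2 fold change 0.44, edgeR adjusted p = 0.0312, up to 0.186 with a library left out); Neurog2 and Myog, at -0.47 and -0.50, were not called. Of the placenta and decidua list Hand1 was at 0.28 and Prl3b1 at -0.93, neither called. The sequences of 2 rows are not reported here.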

Additional observations from a re-analysis of the deposited data

How the results depend on the processing

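The count of called simple repeats was 0 with all 6 libraries under every scaling, filter, tool and threshold tried, up to an adjusted p under 0.1, except the covariate fit. It was 4 with the share outside genes as covariate, and 0 to 99 with single libraries left out, the 99 without knockout 2. No clear pairing by replicate number was seen in the repeat rows. Deviations of same-numbered embryos correlated at -0.35, 0.08 and 0.50, and 3 of 6 libraries correlated best with their own number. So few embryos cannot exclude a pairing, and the labels do not name one. With the replicate block 0 simple repeats were called and 27 had an unadjusted p under 0.05. Against 24 such simple repeats with no block, repeat count totals gave 46, no filter 49, DESeq2 38, TMM on repeat counts 15, and single libraries left out 2 to 46 besides knockout 2. Without knockout 2, (CCCTAA)n at 1.44 and (C)n at 0.73 were called, and with single libraries left out they lay at 0.75 to 1.61 and at 0.41 to 0.73.

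TMM on repeat counts moved the median log2 fold change of all repeat names from 0.54 to 0.02, and with it the log2 ratios of class sums. It gave -0.26 for all simple repeats, 0.0085, -0.33, -0.013, -0.13 and -0.15 for units of 2 to 6 bases, and -0.86 for mononucleotides. By base content it gave -0.15, -0.13, 0.042, -0.31 and -0.31 from no G or C to only G and C. Repeat count totals, in which ribosomal RNA rows take 35.9% to 76.4%, gave 0.43 for all, 0.32, 0.56 and 0.53 for units of 3, 5 and 6 bases, and 0.34 and 0.35 for the 2 G- and C-richest classes. TMM factors of gene counts gave 0.041 for triplets and 0.068 for units of over 50% G and C. With single libraries left out, the total lay between 0.13 and 0.34, dinucleotides between 0.39 and 0.72 and triplets between 0.07 and 0.12. The named rows outside the telomere and mononucleotide classes kept their sign in 362 of 394 alternative values. Depth limits rare rows: the telomere rows had 26 to 127 counts per library and (CAGAA)n 1 to 19.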
